A study of Homo sapiens with 2 samples.

Results

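The intervals described here lay at the promoters of 8 genes: NCOA5, NEURL4, DRAM2, LEO1, ZMAT2, CTNNBL1, TOMM7 and C16orf70. They come from a list of 4169 intervals recovered by chromatin immunoprecipitation with sequencing (ChIP-seq). An interval belonged to the set if the authors' list assigned it to one of these genes with its summit at most 1000 bp from the gene start, which gave 8 intervals, 1 per gene. The 8 genes were chosen by the height of their intervals and by an 8-letter DNA word near the summits, so neither property is a finding here.

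For the ChIP library, an anti-sGCβ1 antibody (Sigma G4405) was used on untreated U-87 MG cells that overexpressed sGCβ1 and were grown in serum-containing medium. U-87 MG is an established human glioma line. The protein sGCβ1, encoded by GUCY1B3, is the haem-binding part of soluble guanylate cyclase, which senses nitric oxide and in response makes cyclic GMP. An input library without antibody came from the same overexpressing line and was not analysed here. With 1 ChIP library and 1 input library there are no replicates, no control without the overexpressed protein and no test of a condition. The labels do not say how the overexpressing line was made or whether it is 1 clone.

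In ChIP-seq, an antibody recovers DNA fragments held by its target, either directly or through other proteins, and places with many fragments appear as intervals. Most human promoters of widely expressed genes lie in CpG islands, stretches rich in G, C and CpG dinucleotides. Regulatory proteins that read DNA sequence recognise short words there, often at a fixed place close to the start of transcription. The 8 genes do not form 1 pathway. NCOA5 and LEO1 act in transcription, ZMAT2 and CTNNBL1 are associated with splicing, DRAM2 and C16orf70 with autophagy, TOMM7 with protein import into mitochondria, and NEURL4 with centrioles.

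The word was TTTACGGC, read GCCGTAAA on the opposite strand. It was the 1 word of 8 letters present within 100 bp of every member summit when both strands were counted together, and no word of 9 letters was in all 8. The stretches below show the word in its setting in each promoter, since the results turn on it. They are hg19 sequence, 5′ to 3′ in the reading TTTACGGC, with the word in capitals and up to 26 bases on either side, shortened where over 30 bases of an exon would be included.
NCOA5, chr20:44718639-44718698, forward strand: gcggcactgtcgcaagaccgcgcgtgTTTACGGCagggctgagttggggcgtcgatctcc
LEO1, chr15:52263967-52264026, forward strand: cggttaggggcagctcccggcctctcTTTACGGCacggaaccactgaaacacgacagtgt
ZMAT2, chr5:140079979-140080038, forward strand: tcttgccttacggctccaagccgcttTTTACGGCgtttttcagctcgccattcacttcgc
CTNNBL1, copy nearest the summit, chr20:36322418-36322461, forward strand: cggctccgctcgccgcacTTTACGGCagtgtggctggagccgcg
CTNNBL1, other copy, chr20:36322318-36322377, forward strand: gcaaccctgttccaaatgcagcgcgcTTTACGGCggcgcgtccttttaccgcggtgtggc
DRAM2, chr1:111682799-111682858, forward strand: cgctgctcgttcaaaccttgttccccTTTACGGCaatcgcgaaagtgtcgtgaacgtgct
C16orf70, chr16:67143791-67143850, forward strand: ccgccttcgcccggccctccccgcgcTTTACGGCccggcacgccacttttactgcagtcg
TOMM7, chr7:22862468-22862527, forward strand: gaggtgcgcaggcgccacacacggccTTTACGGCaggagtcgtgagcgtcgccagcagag
NEURL4, copy nearest the summit, chr17:7232804-7232863, forward strand: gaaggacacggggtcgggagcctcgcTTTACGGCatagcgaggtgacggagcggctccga
NEURL4, other copy, chr17:7232713-7232772, forward strand: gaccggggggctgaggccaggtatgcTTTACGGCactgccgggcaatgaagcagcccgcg
All 10 copies within 100 bp of the summits were on the forward strand of the genome. The genes themselves lie on both strands, 5 on the reverse (NCOA5, NEURL4, DRAM2, LEO1, TOMM7) and 3 on the forward strand. The word therefore stood on the sense strand in 3 genes and on the antisense strand in the other 5. The strand may have been fixed when the genes were chosen, so it is given as a description. In the other promoter intervals with the word, 18 copies were on the forward and 25 on the reverse strand.

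Beyond the word itself the stretches had little in common. Over the copies nearest the summits, the base before the word was C in 6 of the 8 members and the base after it was A in 6 of 8. Once the word's own bases were masked, no 6-letter word was present in 6 or more members, and the most widely shared ones were in 5. Among 8-letter words, counted without that masking, 2 were in 6 members, none was in 7, 5 or 4, and 10 were in 3. The 2 in 6 members were CTTTACGG and TTACGGCA, which are the word itself shifted by 1 base. ZMAT2, CTNNBL1 and C16orf70 each held a further copy with 1 base changed: T1C in ZMAT2, G6C in CTNNBL1 and G6T in C16orf70, with positions counted from 1 at the first T of TTTACGGC.

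Height, the authors' maximum fragment density within an interval, is the measure that placed these promoters at the top of the list. It lay between 188 and 263 in the 8 members, with a median of 222, whereas the median of the whole list was 14 (quartiles 12 and 18). All 8 members passed a height of 40, which 9.86% of all intervals reached, and all 8 held the word, which 1.30% of all intervals and 3.68% of promoter intervals held. Both shares are given as background only. Promoter intervals are here the 1303 intervals with a listed gene start within 1000 bp of the summit.

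**Figure D1:**
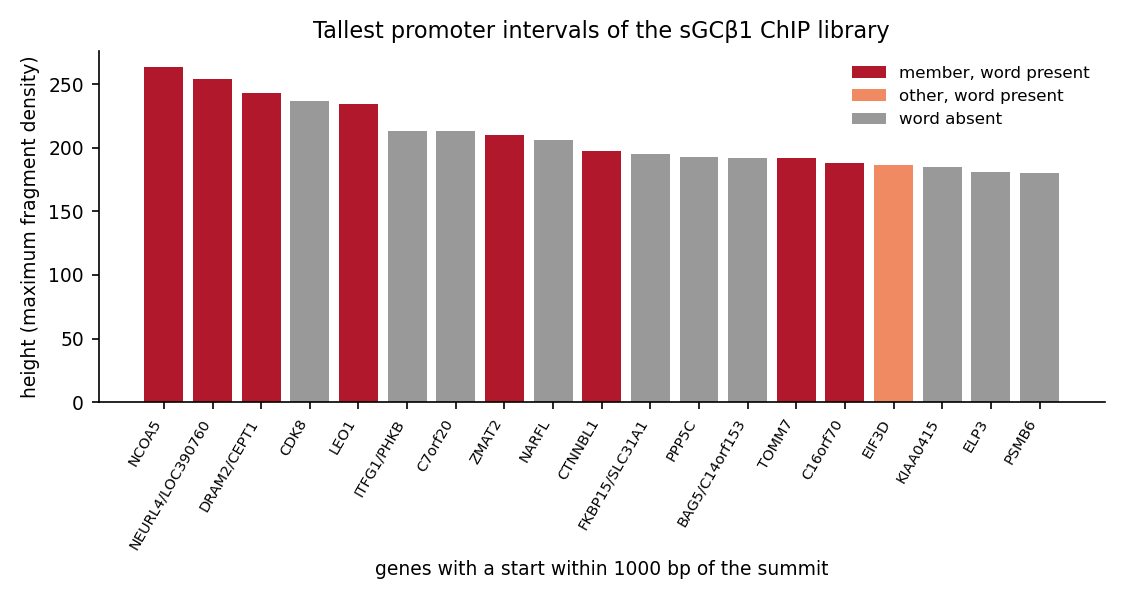
Height (maximum fragment density) of promoter intervals among the 20 tallest, 1 of which is not shown, with 1 bar per interval and the genes that start within 1000 bp of the summit. The 8 members, in dark red, lie between 188 and 263; EIF3D (186), in orange, holds the word but is not a member, and grey bars lack it within 100 bp of the summit.

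The genes of the transcription machinery had the tallest interval and the highest listed score. NCOA5, a coactivator of nuclear receptors, had a height of 263, rank 1 of the list, in an interval of 2124 bp on chromosome 20 from 44717402 to 44719526. Its mean density was 44.3, which ranked only 15, and its height was 5.94 times its mean density, the highest ratio of the 8. Its word lay 44.5 bp from the summit, the farthest among the copies nearest each member summit, and at -67.5 bp from the annotated start (negative is upstream). LEO1, a subunit of the PAF1 complex that accompanies RNA polymerase II, had a height of 234 on chromosome 15 from 52262995 to 52264681. Its mean density of 54.6 was the highest of the 8 and its score of 3233 the highest listed. As 22 intervals share a score of exactly 3100, order by score near the top is not firm. The word stood 28.5 bp from its summit, at -21.5 bp from the annotated start, and a second gene, MAPK6, starts within 1000 bp on the opposite strand.

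The promoters of the splicing-associated genes were close in height. ZMAT2, a zinc finger protein of the spliceosome, had a height of 210 on chromosome 5 from 140079359 to 140080904, and CTNNBL1, a component associated with the PRP19-CDC5L splicing complex, had 197 on chromosome 20 from 36321744 to 36323306. These were also the shortest intervals of the 8, at 1545 bp for ZMAT2 and 1562 bp for CTNNBL1. The word at ZMAT2 was 8.5 bp from the summit and at -23.5 bp from the start. ZMAT2 was the 1 member whose interval overlapped no CpG island in the authors' count. At CTNNBL1 there were 2 copies on the same strand, at -84.5 and 7.5 bp from the start, the second of them in the 5′ untranslated region of the first exon and 7.5 bp from the summit.

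The genes of autophagy and of mitochondrial import had heights between 188 and 243. DRAM2, a lysosomal membrane protein that promotes autophagy, had a height of 243 on chromosome 1 from 111681893 to 111684118, and CEPT1 starts within 1000 bp on the opposite strand. The word was 19.5 bp from the summit, at -113.5 bp from the annotated DRAM2 start but at 9.5 bp, downstream, from the start used in the authors' list. Of the DRAM2 stretch printed above, 14 bases lie in an annotated exon. The annotated DRAM2 start lies outside that stretch, so the exon belongs to another gene. CEPT1 is the only other gene with an annotated start within 1000 bp, and the distance from the word to it was not measured. C16orf70, now PHAF1, a protein of forming autophagosomes, had the lowest height of the 8, at 188, on chromosome 16 from 67143017 to 67144824, with its word 19.5 bp from the summit and at -23.5 bp from the start. TOMM7, a small subunit of the translocase of the outer mitochondrial membrane, had a height of 192 on chromosome 7 from 22861339 to 22863341 and the lowest mean density of the 8, at 35.0. Its word was 17.5 bp from the summit and at -29.5 bp from the start.

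NEURL4, a neuralized family protein of centrioles, held the most copies of the word. Its interval, on chromosome 17 from 7231943 to 7234031, had a height of 254 and a mean density of 52.3. In all, 3 copies lay within 500 bp of the summit, at -88.5, -179.5 and -383.5 bp from the annotated start, and the middle one was 1.5 bp from the summit. Its summit was also the farthest of the 8 from a listed start, at -194 bp; the other members lay between -75 and -2 bp. The only other interval listed for a member gene was one assigned to ZMAT2 at 10848 bp from its start, with a height of 96. That interval lay at VTRNA1-1, a vault RNA gene, and held no copy of the word within 100 bp of its summit.

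**Figure D2:**
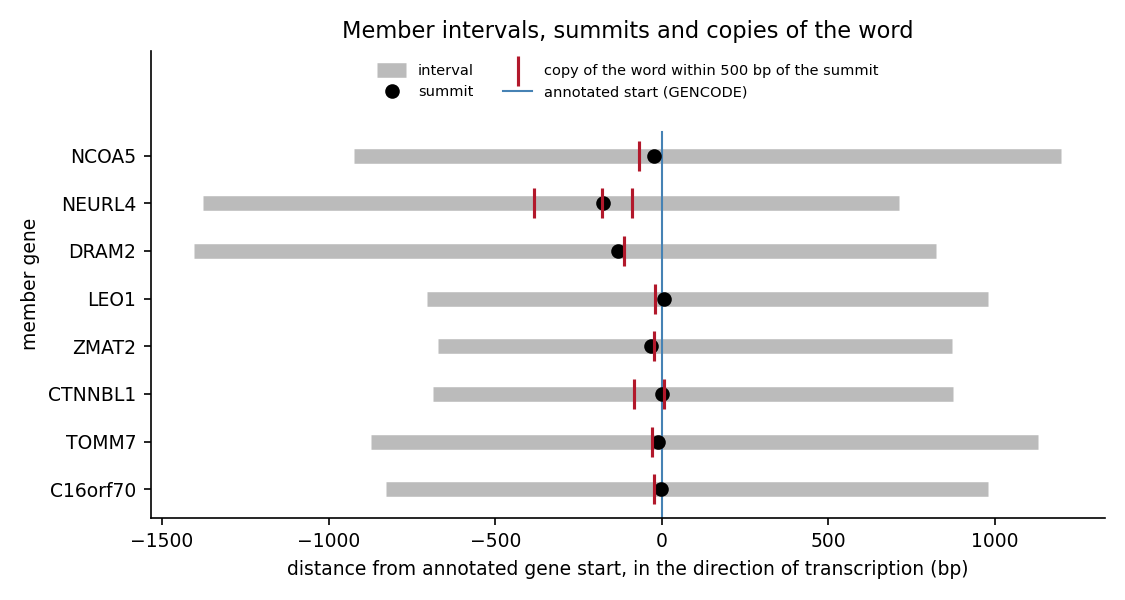
Position of each member interval (grey bar), its summit (black dot) and the copies of the word within 500 bp of the summit (red ticks), in bp from the annotated gene start (blue line) along the direction of transcription. In 7 of the 8 genes every copy is upstream of the start, and CTNNBL1 has 1 copy at 7.5 bp downstream.

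Relative to the annotated GENCODE starts of the member genes alone, 10 of the 11 copies within 500 bp were upstream and 1 was in a 5′ untranslated region. In 6 of the 8 members the copy nearest the summit was within 25 bp of the summit, and the median distance was 18.5 bp. Summits in the deposited list are coarse: 72.6% of them are multiples of 32 bp, so distances of a few bases between word and summit cannot be resolved. GC content over 201 bp around the summits lay between 53.7% at ZMAT2 and 73.1% at C16orf70, with a median of 64.4%, beside 63.2% in the other promoter intervals. The ratio of observed to expected CpG dinucleotides had a median of 0.996 in the members, 0.988 in the 20 other promoter intervals of height 160 or more and 0.815 in all other promoter intervals. No other interval was nearer to a member summit than 10.9 kb (ZMAT2), and at CTNNBL1 the nearest was 474 kb away.

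The members were not the only tall promoters with the word. Of the 20 tallest promoter intervals, 10 held it within 100 bp, the 8 members and EIF3D among them. EIF3D, a subunit of translation initiation factor 3, had a height of 186, just below C16orf70, and carried the word on the reverse strand. A further 6 of these 20 had a word that differed from TTTACGGC by 1 base, and 4 had neither: CDK8 (237), C7orf20 (213), BAG5 with C14orf153 (192) and KIAA0415 (185). BAG5 had an exact copy 101.5 bp from the summit, just outside the window. The stretches below show the word at EIF3D and the changed word at 2 promoters of like height, with A4G at ITFG1 and PHKB (213) and G7A at FKBP15 and SLC31A1 (195).
EIF3D, chr22:36925213-36925272, reverse strand: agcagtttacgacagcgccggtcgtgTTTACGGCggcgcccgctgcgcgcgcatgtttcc
ITFG1 and PHKB, chr16:47494980-47495039, reverse strand: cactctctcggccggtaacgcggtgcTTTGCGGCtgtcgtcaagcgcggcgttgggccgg
FKBP15 and SLC31A1, chr9:115983570-115983629, reverse strand: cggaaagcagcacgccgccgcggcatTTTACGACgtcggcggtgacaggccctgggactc
Lower promoters with the word, in order of height, were those of RAD52 (175), a recombination repair protein, C10orf46 and C2orf29 (172 each), RPS16 (146), a protein of the small ribosomal subunit, NUDT9 (145), PDSS2 (144), C1orf107 (143) and RBM33 (142). In these 8 the word lay between 13.5 bp (RPS16) and 75.5 bp (RBM33) from the summit.

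Among promoter intervals that were not members, the word was found more often in taller ones. The word had been picked from tall promoters of this same list, near their summits. The shares given here, and the heights and distances below, are therefore descriptions and no independent check. It was present in 27 of 192 with a height of 40 or more (14.1%, exact 95% interval 9.48 to 19.8) and in 13 of 1103 with a lower height (1.18%, 0.629 to 2.01). By class of height, the share was 0.431% up to a height of 12 (1 of 232), 0% from 13 to 16 (0 of 476, exact upper limit 0.772%, with 3 counts being 0.630%) and 1.47% from 17 to 20. It was 4.62% from 21 to 40, 8.82% from 41 to 80, 13.6% from 81 to 120 and 31.8% from 121 to 160 (7 of 22). Above 160 it was 25% (5 of 20, 8.66 to 49.1) with the 8 members left out and 46.4% (13 of 28) with them. All 8 members held the word and lay above 160. Leaving them out lowers the share in this class and the 27 of 192, so the step down from 31.8% is not a finding. Where the list gave no gene start within 1000 bp, the word was in 1 of 211 intervals of height 40 or more (0.474%, 0.012 to 2.61). It was in 5 of 2655 lower ones (0.188%). Only 5 intervals without a listed start lay above a height of 160, too few to bound the share there. These intervals cover counting error only, and intervals of 1 library are not replicates.

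**Figure D3:**
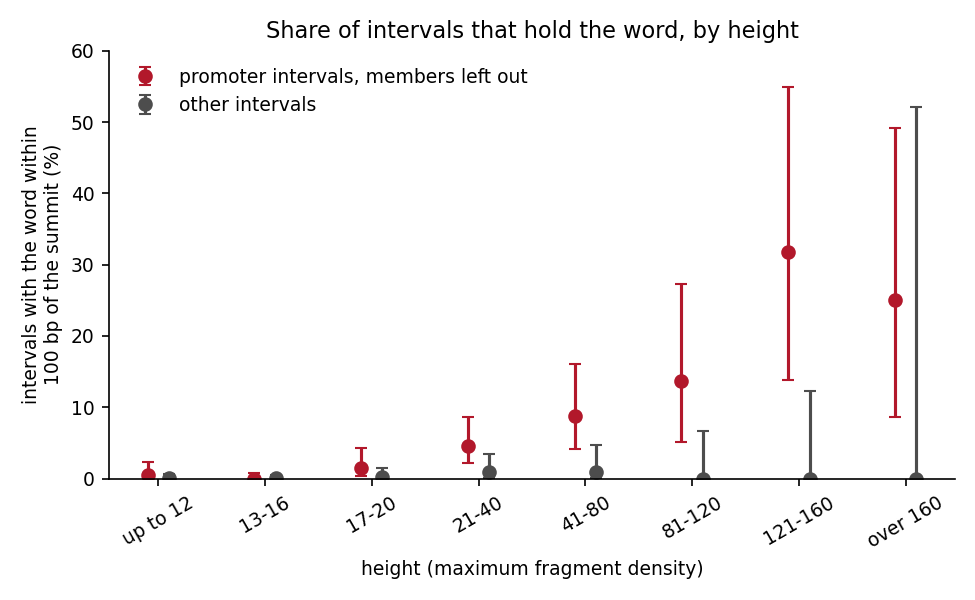
Share of intervals (%) with the word within 100 bp of the summit, by class of height. Promoter intervals without the 8 members are red, and intervals with no listed gene start within 1000 bp are dark grey. Bars are exact 95% binomial intervals. The red share is 0.431% in the lowest class and 31.8% at heights of 121 to 160, while the grey share is at most 0.957%. Leaving out the members, all of which hold the word, lowers the red share above 160.

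The 40 other promoter intervals with the word had a median height of 70.5 (quartiles 29.3 and 132), against 16 (13 and 22) in the 1255 without it. Heights of at least 40 were found in 67.5% of the intervals with the word and in 13.1% of those without it. The word was in 37 of 1180 other promoter intervals with a CpG island (3.14%, 2.22 to 4.30) and in 3 of 115 without one (2.61%, 0.541 to 7.44), shares whose intervals overlap. Within CpG island promoters alone, the median height was 71 with the word and 16 without it. The median ratio of observed to expected CpG there was 0.975 with the word and 0.831 without it. CpG content was thus not matched, and its part in the height was not tested. The 3 other promoter intervals with more than 1 copy had heights of 115, 144 and 186.

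The word was also placed close to the summit in these other promoters, described with the same limit, as nearness to the summit helped to pick the word. Of 28 promoter intervals of height 40 or more with a copy within 500 bp, 25 (89.3%) had it within 50 bp, and the median distance was 25 bp. Of 23 lower promoter intervals with a copy within 500 bp, 8 (34.8%) had it within 50 bp, with a median of 91.5 bp. Windows of the same size centred 600 bp to the left and right of the summits held the word in 3 and 1 of the 1295 other promoter intervals, compared with 40 at the summits. For those of height 40 or more the count was 0 of 192 on either side, with an exact upper limit of 1.90% and 3 counts being 1.56%.

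**Figure D4:**
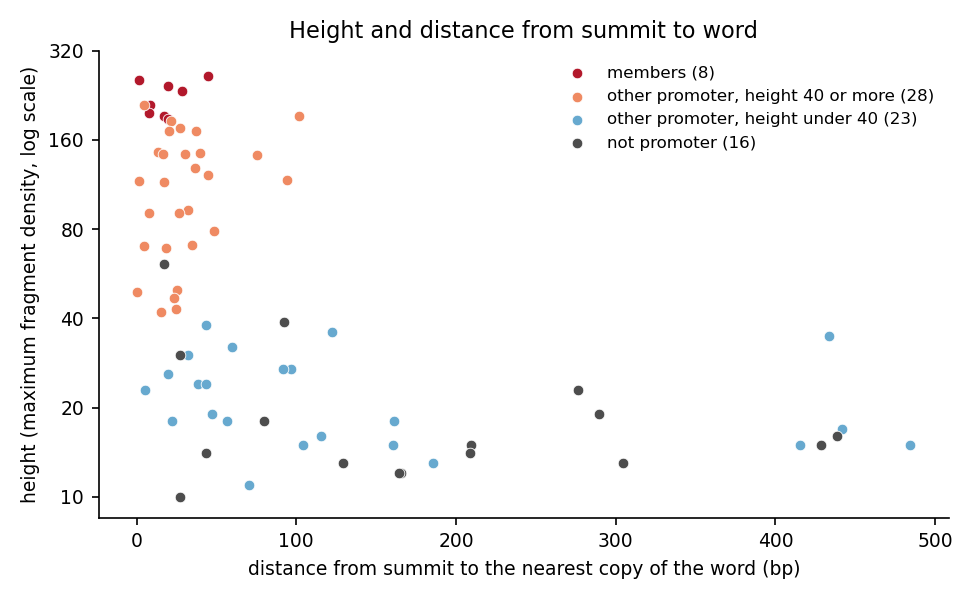
Height (maximum fragment density, log scale) against the distance from summit to the nearest copy of the word (bp), 1 point per interval with a copy within 500 bp. The 8 members (dark red) are all within 44.5 bp, and 25 of 28 other promoter intervals of height 40 or more (orange) are within 50 bp. Blue points are lower promoter intervals and dark grey points have no listed gene start within 1000 bp.

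With the members left out, the word was among the most frequent of tall promoters. The word had been chosen from tall promoters of this same list, so its rank is a description and no independent recount. In the 67 other promoter intervals of height 100 or more it was present in 15 (22.4%), rank 3 of 8975 words of 8 letters seen there. The words above it, CGTAAAGC in 18 and CCGTAAAG in 17, overlap its opposite-strand reading by 6 and 7 letters. The next words were GTCGTAAA in 14, which is the opposite-strand reading with G7A, and, tied at 12, CGCCGCCG and GCCGCAAA, the opposite-strand reading with A4G. In promoter intervals of height under 40 the word ranked 3701, with 13 of 1103. The most frequent word there was in 132 intervals.

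The bases beside the word are given as counts, with no test. The base before it was C in 6 of 8 members, in 24 of 27 other promoter intervals of height 40 or more and in 8 of 13 lower ones. The base after it was A in 6 of 8 members, in 7 of 27 of the taller others and in 3 of 13 of the lower ones. Over 10 bases on either side, the members matched their own commonest bases at 7 (DRAM2) to 13 (C16orf70) of 20 positions, a measure that favours them because they set it. The other promoters most like them were PDSS2 with 11 of 20 and a height of 144, NDUFS5 and C14orf135 with 10 each and heights of 69 and 38, and CLEC16A and LSM4 with 9 each and heights of 122 and 42.

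Not every change of the word was found at tall promoters. Other promoter intervals without the exact word but with a word 1 base different numbered 142, with a median height of 20 and 34.5% of them at 40 or more; the 1113 with neither had a median of 15 and 10.4%. With G7A, 20 of 25 intervals reached 40 (median 107), with C8T 5 of 5 (median 118), with T3G 9 of 11 (median 100) and with A4G 11 of 20 (median 61.5). With A4C, the commonest change, 11 of 31 did (median 27.0), and with T3C 0 of 8 did, at a median of 14.0. No interval with a change of C5 reached 40, 0 of 4 with C5A, 0 of 3 with C5G and 0 of 4 with C5T. The same held for T1G (0 of 1), T2C (0 of 2), T3A (0 of 2) and C8G (0 of 2). With so few intervals, such a 0 cannot be told from the 10.4% seen with neither word. Some intervals held more than 1 changed word, as at PPP5C (193), DNAJC19 (179) and DPH5 (165), and are counted under each. The counts per change are small, and the changes were compared after the word had been chosen from these data.

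**Figure D5:**
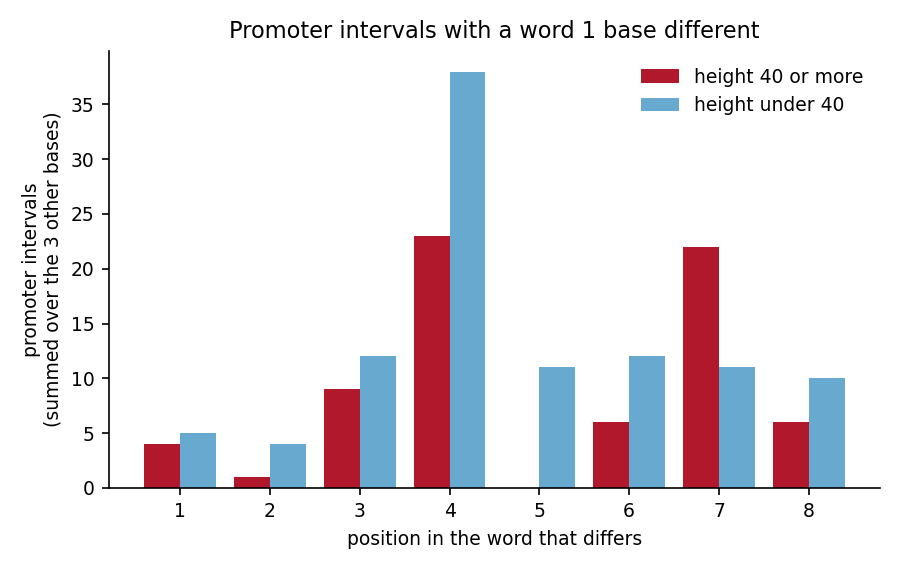
Number of promoter intervals, members left out, that lack the exact word and hold a word differing at 1 position, for heights of 40 or more (red) and under 40 (blue); counts are summed over the 3 other bases and an interval can be counted more than once. At position 5 there are 0 tall and 11 low intervals, at position 7 there are 22 tall and 11 low.

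Seen from the genome, most copies of the word carried no interval. The hg19 chromosomes hold 9474 copies, of which 91 (0.961%) fell in an interval. Within 250 bp of a protein-coding start 64 of 189 copies did (33.9%, 27.2 to 41.1), farther out but within 1000 bp 6 of 201 (2.99%), and beyond 1000 bp 21 of 9084 (0.231%). Copies of the 8 members, which were chosen for tall intervals, are included in these counts. For scale, 7.39% of all protein-coding promoters had an interval within 1000 bp, a measure by promoter and not by copy. The share of the genome that lies in intervals was not computed. The 0.231% beyond 1000 bp thus has no background beside it.

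The same was seen in the RefSeq promoter table (GRCh38.p14, 250 bases before to 50 after each start), searched for TTTACGGC on both strands. All 8 member promoters held it, the first base of the match lying between -183 (NEURL4) and 4 (CTNNBL1) from the RefSeq start. Among all 35116 promoters, 0.387% held the word, and of the 22199 protein-coding ones 0.459%. Without the members, 37 of 94 protein-coding promoters with the word had an interval within 1000 bp (39.4%, 29.4 to 50), against 1595 of 22097 without it (7.22%, 6.88 to 7.57). An interval of height 40 or more was found at 23 of the 94 (24.5%) and at 190 of the 22097 (0.860%). With G7A in place of the exact word, 24 of 46 promoters had an interval (52.2%, 36.95 to 67.1) and 21 had one of height 40 or more. With a changed C5, an interval was found at 10 of 160 promoters for C5A (6.25%), 3 of 141 for C5G (2.13%) and 7 of 99 for C5T (7.07%), and 2, 1 and 1 of these were of height 40 or more. With T3G, 9 of 59 promoters had an interval (15.3%) and 5 a tall one. With T3C, 18 of 107 had an interval (16.8%) and 0 a tall one. For C8T these counts were 7 of 45 (15.6%) and 4, for A4G 31 of 164 (18.9%) and 12, and for A4C 82 of 372 (22.0%) and 17. For T1C they were 9 of 56 (16.1%) and 5, for T2C 9 of 64 (14.1%) and 3, and for A4T 11 of 82 (13.4%) and 1. The remaining changes are not listed. Promoters were not matched on CpG islands or activity, and of the listed promoter genes 91.3% could be matched by symbol.

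Relatives of the member genes, that is family members and complex partners, were set beside all protein-coding promoters. The members were chosen for height, so lower intervals in their relatives are no finding. Of 39 such genes, 7 had an interval within 1000 bp of their start (17.9%, 7.54 to 33.5), beside 7.39% of all protein-coding promoters. All 39 were matched by symbol, against 91.3% of the listed promoter genes behind the 7.39%, which can lower it. The shares are thus not strictly comparable, and no excess is read from them. The 7 relatives with an interval had a median height of 19, beside 16. They were NEURL2 (118, shared with the starts of other genes nearby), the PAF1 complex genes PAF1 (23) and CTR9 (11), the nuclear receptor coactivator NCOA3 (22), CDC5L (19) and PRPF19 (15) of the splicing complex that CTNNBL1 is associated with, and TOMM22 (13), a receptor of the same translocase as TOMM7. None of these 7 intervals held the word within 100 bp of its summit, beside 3.68% of all promoter intervals, and relatives without an interval were not searched for it.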

How the data were processed

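ChIP and input libraries of U-87 MG cells overexpressing sGCβ1 were sequenced; the interval list of the ChIP library was analysed. Per the series' design text, 75-nt reads were aligned to hg19 with BWA, kept if uniquely placed with at most 2 mismatches, and intervals were called with MACS. The submitters' processing notes list the same tools. No version, read total or use of the input as control is stated in the labels, so the depth behind each value and its precision are unknown. Per the file headers, the authors' peak and average values are signals: the maximum (height) and mean fragment density of each interval. The score the authors deposited is -10 times log10 of the MACS p-value, lowest 70 (p = 1e-07). A value of 3100 was shared by 22 intervals, NEURL4 and ZMAT2 among them. CpG islands were taken as counted in the deposited list.

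Sequence came from the GRCh37 primary assembly, the same build as hg19, read with pysam 0.24.0 under Python 3.11.15, and starts from GENCODE version 44 on GRCh37 (canonical transcripts). Words were counted within 100 bp of the deposited summit on both strands; the search was tested on simulated data with a planted word. Shares have exact Clopper-Pearson 95% intervals (scipy 1.17.1). No p-value was computed: there is 1 library, and the members, the word and the lists were chosen with earlier results of these data known. Named are the members, genes at the tallest promoter intervals with and without the word, the promoters most like the members, and listed relatives with an interval; 1 promoter interval is counted but not reported here. Alternatives were other windows, distances, strengths, a stricter score, autosomes, 1 base different and, added after seeing the data, the forward strand only.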

Additional observations from a re-analysis of the deposited data

How the results depend on the processing

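No paired analysis was possible because there is 1 ChIP library, and no replicate could be left out. The 8 member intervals stayed 8 at 500 bp and became 9 at any distance from the start. All 8 were among the 50 strongest intervals by height, mean density or score. In windows of 50, 100 and 200 bp, 1 word of 8 letters was in all 8. The members were chosen for height and for the word, so their high ranks and shared word are no independent check. With a stricter score, at or above the median of the list, the share with the word was 2.02% in all intervals but members (1.11% without that limit), 5.18% in other promoter intervals (3.09%) and 2.14% in those of height under 40 (1.18%); fewer low intervals remain by construction. In a window of 50 bp, the last of these was 0.635% (7 of 1103). With 1 base different allowed, the shares were 8.36%, 14.1% and 9.61% in the same sets, and 39.6% in other promoter intervals of height 40 or more (14.1% for the exact word). Of the 40 other promoter intervals with the word, 97.5% were above the median height of those without; in the window of 50 bp it was 100%. Relatives with an interval numbered 7, and 11 at any distance. Counting the forward strand only, an alternative chosen after seeing the data, 9 promoter intervals of height 160 or more held the word, against 13 on both strands. No read total is known, so limits set by depth were not assessed.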

Other observations

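Away from promoters, 6 intervals held the word within 100 bp of the summit, with heights of 61, 39, 30, 18, 14 and 10. The tallest of them, on chromosome 20, had the word 17.5 bp from its summit.

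The 13 promoter intervals of height under 40 with the word included those of C14orf135 (38), BRP44L (32), a mitochondrial pyruvate carrier subunit now named MPC1, MCTS1 (30), the histone deacetylase gene HDAC4 (27), NUP160 (26) of the nuclear pore and PSMD8 (24) of the proteasome lid. In RNF7 (23) the word was 5.5 bp from the summit. A near word therefore did not go with a tall interval in each case. Among protein-coding promoters of the RefSeq table that hold the word, 57 had no interval within 1000 bp.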
